A study of Mus musculus with 4 samples.

Results

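Toll-like receptors are membrane sensors of microbial products on cells of the monocyte lineage, from which osteoclasts form. The genes described here are 10: the receptors Tlr1, Tlr2, Tlr4, Tlr6, Tlr7 and Tlr9, the co-receptors Cd14 and Ly96, the adaptor Myd88 and the kinase Irak4. They were followed through every probe set whose only gene symbol in the platform annotation was 1 of these 10. This gave 12 of the 22690 probe sets of the array, for 9 of the 10 genes, among 12394 genes with a probe set of 1 symbol. No probe set carried the symbol Irak4 alone, so Irak4 was not measured. Tlr7 had 3 probe sets, Tlr4 had 2 and the other 7 genes had 1 each.

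Recognition starts outside the cell for some of these receptors and inside endosomes for others. CD14 hands bacterial lipopolysaccharide to the complex of TLR4 with MD-2, the protein encoded by Ly96. TLR2 binds bacterial lipopeptides as a pair with TLR1 or TLR6, whereas TLR7 and TLR9 read single-stranded RNA and unmethylated CpG DNA in endosomes. All of these receptors signal through the adaptor MyD88 and the kinase IRAK4 to NF-kappaB. RANK also activates NF-kappaB during osteoclast formation.

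The series compared day 3 osteoclast cultures of 2 genotypes, each on 2 Affymetrix arrays, from C57BL/6 mice whose Nfatc1 alleles were floxed in both groups (fl/fl). NFATc1 is a transcription factor that osteoclast formation depends on. Wild-type mice lacked the Mx-Cre transgene (MxCre-), and NFATc1-deficient mice carried it (MxCre+), with excision induced by polyIC; the Mx promoter responds to interferon and is not limited to the osteoclast lineage. Each array held RNA of 1 pool, of 3 mice for replicate 1 and of 4 for replicate 2, from sorted marrow cells that lacked CD11b, CD3e and B220 and carried c-Kit and c-Fms, grown with M-CSF and RANKL at 20000 cells per well. PolyIC is itself a ligand of TLR3; the sources used here do not state whether the wild-type mice received it, nor the age of the mice, so Cre genotype and exposure to polyIC cannot be told apart.

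Values are MAS5 signals, 1 number per probe set and array on a linear scale, and changes are differences of log2(signal + 23.3), NFATc1-deficient minus wild-type. A probe set was called when its adjusted p was under 0.05 (limma, Benjamini-Hochberg over all 13577 probe sets tested). In cultures of mixed cells, fewer cells of a type and less RNA per cell cannot be told apart. Array medians lay between 111.6 and 130. The brighter Nfatc1 probe set had signals of 5434 and 6147 in the wild-type cultures and 3018 and 4098 in the deficient ones, so the targeted transcript was still measured there. All 7 tested osteoclast markers fell, of which Calcr and Itgb3 passed the filter on dim signals only through the wild-type arrays, and the sum of their signals was 43638 to 49299 on the wild-type arrays and 19085 to 26175 on the deficient ones. Of 9 tested macrophage and monocyte markers 2 fell and 7 were not called, with sums of 46158 to 52024 and 40801 to 40997.

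The co-receptors for lipopolysaccharide changed in opposite directions, Cd14 rising and Ly96 falling, and no probe set of a Toll-like receptor was called. Among the 12 probe sets 8, for 7 genes, passed the filter on dim signals, and 1 was called higher and 1 lower. Over all probe sets tested 12.8% were called higher and 11.4% lower, 24.2% together, so 2 of 8 is near the background share. The median change of the 8 was 0.08, against 0.04 over all probe sets tested. Signals of the 2 genotypes did not overlap for 5 of the 8, against 63.2% of all probe sets tested, which is again near the background.

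**Figure D1:**
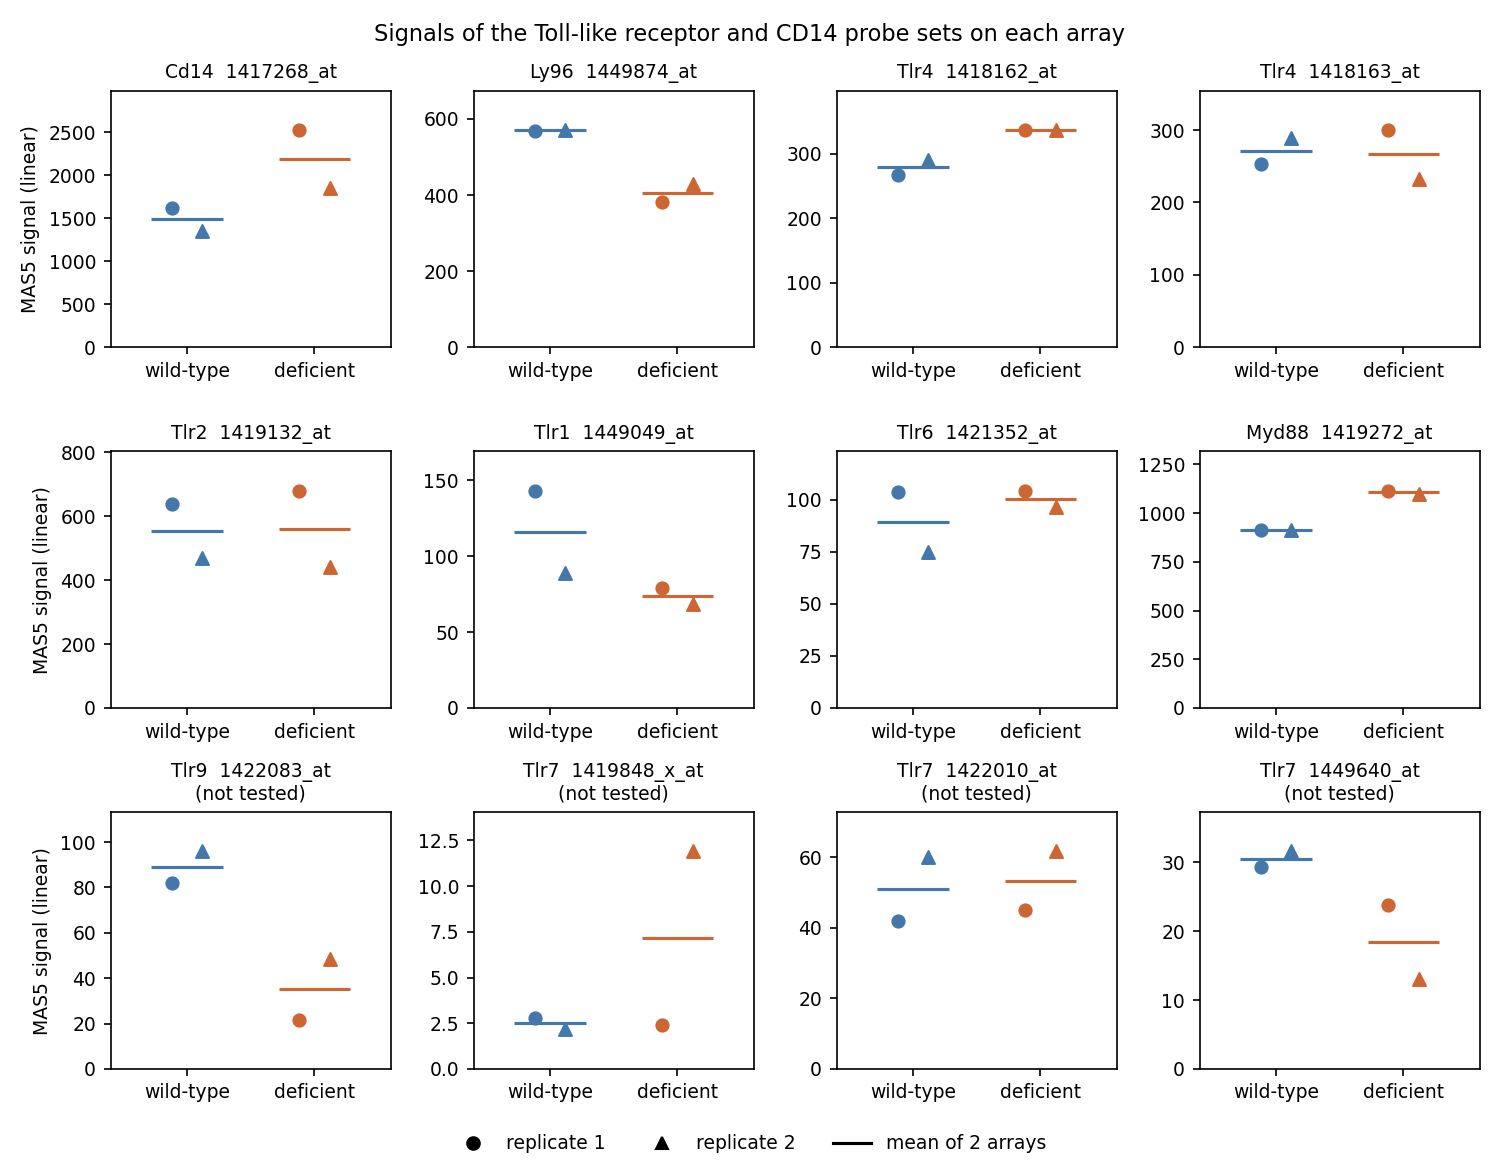
Each panel plots the MAS5 signal of 1 probe set (vertical axis, linear, from 0, with its own range) on the 4 arrays, wild-type at left in blue and NFATc1-deficient at right in orange; circles are replicate 1, triangles replicate 2 and lines the mean of 2 arrays. Cd14, Myd88 and the brighter Tlr4 probe set lie higher on both deficient arrays. Ly96, Tlr1, Tlr9 and the Tlr7 probe set of middle brightness lie lower. The Tlr2 and Tlr6 signals and those of the remaining Tlr4 and Tlr7 probe sets overlap between genotypes.

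Cd14 encodes the surface protein that captures lipopolysaccharide. Its signals were 1622 and 1353 in the wild-type cultures and 2532 and 1848 in the deficient cultures. Both deficient arrays lay above both wild-type arrays, and the deficient replicate 1 array was the highest. The mean rose from 1488 ± 190 to 2190 ± 484 (SD, n = 2 arrays per group), a ratio of 1.47. The log2 change was 0.54 (SE 0.16, limma adjusted p = 0.0410), with 0.63 for replicate 1 and 0.44 for replicate 2 taken alone. Without the deficient replicate 1 array the change was 0.31 (adjusted p = 0.232), and without wild-type replicate 2 it was 0.41 (adjusted p = 0.0821). The call was also lost without the filter (adjusted p = 0.103) and without the intensity trend (0.128). A rise of this size or more was found for 12% of all probe sets tested.

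Some granulocyte markers rose, as Cd14 did. Of 9 tested markers 4 rose (S100a8, S100a9, Ngp and Chil3). The other 5 (Mpo, Prtn3, Camp, Elane and Ltf) overlapped between the genotypes and were not called. In replicate 2 Camp (292 in wild-type, 220.1 in deficient), Ltf (223.5 and 202.6) and Elane (251.5 and 250.8) were lower in the deficient culture. The remaining tested markers were higher there. The summed signal of the list was 5557 and 6149 on wild-type replicates 1 and 2, and 15901 and 7664 on deficient replicates 1 and 2. The highest sum belonged to deficient replicate 1, the array that also had the highest Cd14 signal. On the wild-type arrays the order was the opposite, with the higher Cd14 signal in replicate 1 and the higher granulocyte sum in replicate 2. S100a8, which encodes a subunit of the alarmin calprotectin, had 918 and 1492 in the wild-type cultures, 4443 in deficient replicate 1 and 2224 in deficient replicate 2. None of the markers was listed at 0, and the lowest granulocyte signal was 79.5. The part of these markers in the Cd14 result was not tested.

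**Figure D2:**
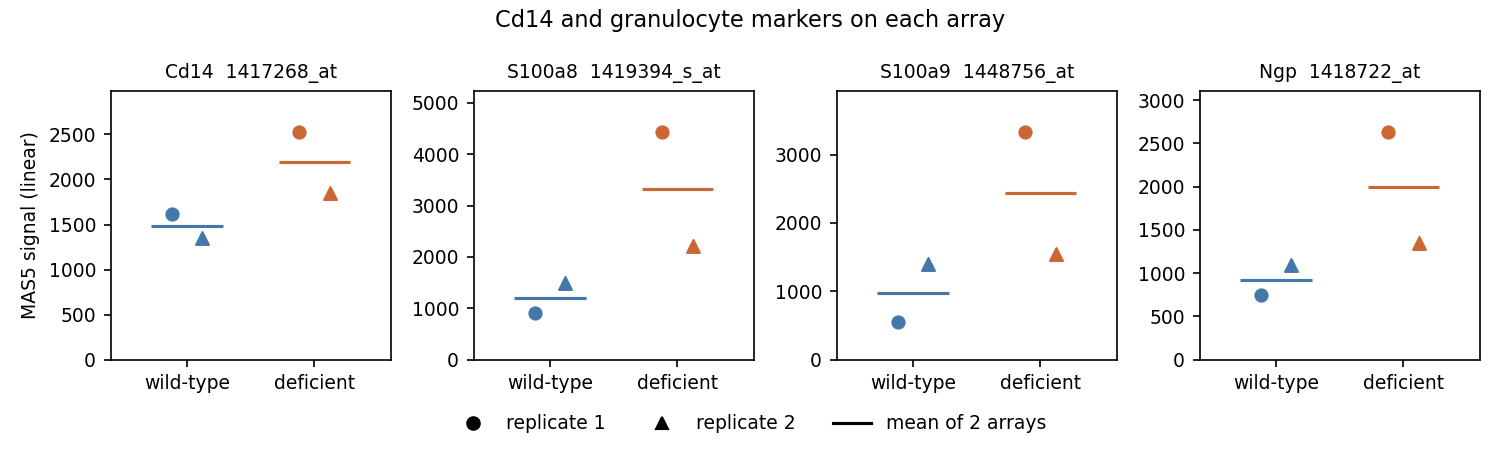
MAS5 signals (vertical axis, linear, from 0) of Cd14 and of 3 of the 4 granulocyte markers called higher, on the 4 arrays. Circles are replicate 1, triangles replicate 2 and lines the mean of 2 arrays. In all 4 panels deficient replicate 1 is the highest point, at 2532 for Cd14 and 4443 for S100a8.

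Ly96 encodes MD-2, the lipopolysaccharide-binding partner without which TLR4 does not respond to it. Wild-type signals were 569.1 and 572, and deficient signals 381.2 and 428.1. The wild-type arrays lay close together and above both deficient arrays. The mean fell from 570.6 ± 2.05 to 404.7 ± 33.2 (SD, n = 2), to 0.709 of the wild-type level. The log2 change was -0.47 (SE 0.14, limma adjusted p = 0.0377), and it was -0.55 for replicate 1 and -0.40 for replicate 2 taken alone. With any 1 of the 4 arrays left out the change kept its sign, from -0.55 to -0.40, but the adjusted p was 0.0534 to 0.179. It was 0.0717 when arrays were scaled by their medians, 0.0626 without the filter and 0.0692 without the intensity trend.

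Tlr4 itself, the signalling chain of that complex, was not called at either probe set. At the brighter one the signals were 267.6 and 289.9 in the wild-type cultures and 337.5 and 336.8 in the deficient ones, without overlap (log2 change 0.26, 95% interval -0.10 to 0.62, limma adjusted p = 0.283). At the dimmer one they were 252.9 and 289.6 against 300.8 and 232.2, with overlap. There the change was -0.03 (95% interval -0.46 to 0.40, limma adjusted p = 0.931). The 2 probe sets, made from the same transcript, differed in sign. The fitted change of Ly96 (-0.47) lay outside both intervals, by a small margin for the dimmer probe set. The 95% interval of Ly96 itself, -0.79 to -0.16, overlapped that of the dimmer probe set. Whether the changes of Tlr4 and Ly96 differ was not tested.

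The lipopeptide receptors gave no call. Tlr2, the shared chain, had 637.1 and 469.6 in the wild-type cultures and 680.5 and 442.7 in the deficient cultures. In both genotypes replicate 1 was the higher array, and the genotypes overlapped. Its change was 0.01 (95% interval -0.49 to 0.50, limma adjusted p = 0.989). Tlr6, the partner for diacylated lipopeptides, had 104 and 74.8 against 104.5 and 96.6, also with overlap (log2 change 0.15, 95% interval -0.44 to 0.74, limma adjusted p = 0.729). Tlr1, the partner for triacylated lipopeptides, had 143.2 and 88.7 against 79.1 and 68.5. Both deficient Tlr1 signals lay below both wild-type signals, by a small margin for wild-type replicate 2. The Tlr1 change was -0.49 (95% interval -1.14 to 0.15, limma adjusted p = 0.248). The intervals of these 3 genes reach changes of 0.44 or more in at least 1 direction, so the arrays do not show that their levels were alike.

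**Figure D3:**
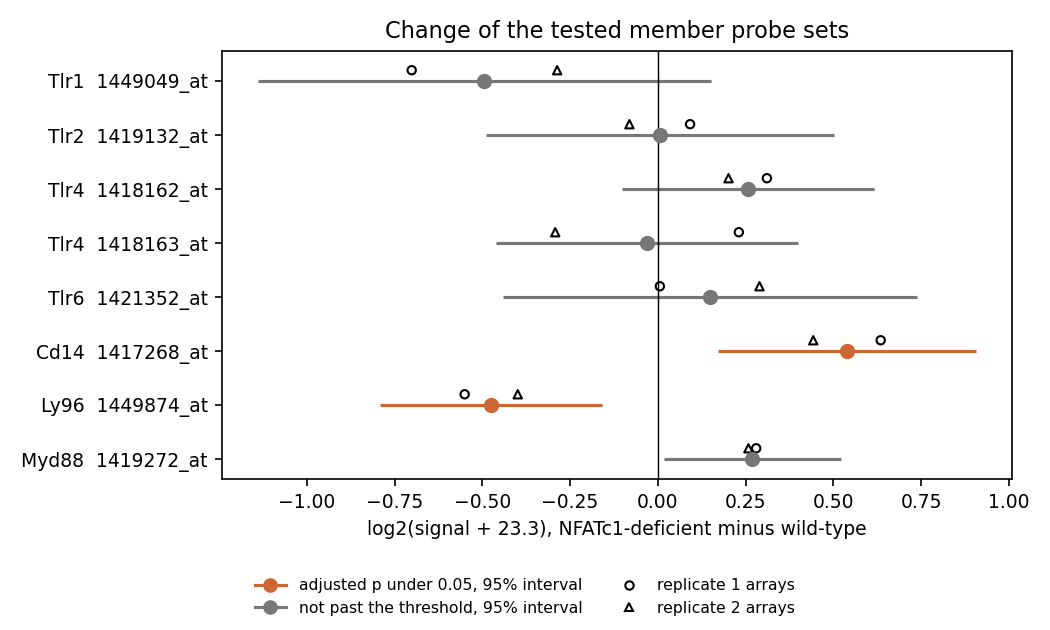
Change of the 8 tested probe sets on the log2(signal + 23.3) scale (horizontal axis, NFATc1-deficient minus wild-type); filled points are the fitted change, bars its 95% interval, orange those called, and open symbols the difference between the arrays of 1 replicate number. Cd14 (0.54) and Ly96 (-0.47) stand on opposite sides of 0, and the intervals of all Toll-like receptor probe sets include 0.

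Myd88, the adaptor shared by these receptors, showed the tightest replicates among the members. Its signals were 914.9 and 914.3 in the wild-type cultures and 1116 and 1098 in the deficient cultures. Both deficient arrays lay above the wild-type arrays, with a ratio of means of 1.21. The log2 change of 0.27 (SE 0.11, 95% interval 0.02 to 0.52) was not called (limma adjusted p = 0.115), nor under any of the 14 other settings (adjusted p from 0.0903 to 0.339). Bacterial and phage transcripts added as hybridisation controls differed by a median of 0.25 in the same direction, with 0.12 to 0.47 over their 18 probe sets. These controls also differed between replicates of the same genotype. Their part in the Myd88 difference was not tested.

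The endosomal receptors were dim. Tlr9 had signals of 81.8 and 95.9 in the wild-type cultures and 21.6 and 48.5 in the deficient cultures, without overlap, a ratio of 0.394 and a log2 change of -0.98. Its mean signal of 61.95 equals the 40th percentile that set the filter, so it was left untested. Only its wild-type signals (mean 88.85, against 35.05 in the deficient cultures) bring it to that limit, so every p-value below that uses the filter comes from a probe set selected by the group in which it is high, and none is given as support. With probe sets at that limit included, a choice made after seeing the data, the limma adjusted p was 0.0653. Scaling by array medians also brought Tlr9 into the test, with an adjusted p of 0.0162, and without the filter it was 0.144. Without deficient replicate 1 the change was -0.64 (adjusted p = 0.339), and without deficient replicate 2 it was -1.32 (adjusted p = 0.0484). No detection calls were used here, so whether the deficient signals, of which 21.6 lies below the added 23.3, stand above background is unknown.

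B cells and plasmacytoid dendritic cells are among the cells that bear Tlr9, and are not the only ones. Among 9 B and T lymphocyte markers on the array only Ighm passed the filter, and it was not called. Its brightest probe set had 169 to 286.5 in the wild-type and 200.1 to 319.3 in the deficient cultures. The other 8 lymphocyte genes, among them Cd79a, Ms4a1 and Pax5, reached at most 55.4 on any array, and none was listed at 0. Of 7 tested dendritic cell markers 2 rose (H2-Aa and Ccr9) and 5 were not called, and the median change was near 0 (-0.0018). Ccr9 passed the filter only through the deficient arrays (mean 156.4, against 45.2 in the wild-type cultures). The summed signal of the list was 2112 to 2659 in the wild-type and 3356 to 3658 in the deficient cultures. Without H2-Aa, an MHC class II gene, the sums were 1115 and 824.9 in the wild-type and 1091 and 1022 in the deficient cultures, with overlap. The part of these cells in the Tlr9 values was not tested. None of 3 tested progenitor and mast cell markers and none of 4 tested stromal and platelet markers was called.

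Tlr7 stayed below the filter at its 3 probe sets, with no signal above 61.6. At the brightest it had 42 and 60.1 in the wild-type cultures and 45 and 61.6 in the deficient cultures, and at the next 29.3 and 31.6 against 23.8 and 13. At the dimmest all signals but 1 were 2.8 or less, and the remaining one was 11.9. These probe sets gave changes of 0.05, -0.38 and 0.22, and without the filter none was called (adjusted p 0.962, 0.459 and 0.575). Tlr7 lies on the X chromosome, and pools of different sex went with the 2 replicate numbers: the brightest Xist probe set had 3595 and 2690 in replicate 1 and 106.1 and 111.4 in replicate 2, and Eif2s3y had 14.4 and 6.5 against 1147 and 1050. At its brightest probe set Tlr7 was higher in replicate 2 in both genotypes, and at the other 2 probe sets the replicates had no common order.

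Promoter sequences from RefSeq (GRCm38.p6) were at hand for 6 of the 10 genes. There was none for Cd14 and Ly96, the 2 members called, nor for Tlr4 and Tlr7. The sequences of Myd88 and Tlr9 are shown because their signals separated the genotypes and each had a single entry. Myd88 was not called and Tlr9 was untested, and signals of 63.2% of all probe sets tested separated the genotypes. Each line gives the 250 bases before the annotated start, 5′ to 3′ on the gene's strand, and capitals mark the NFAT core GGAAA and the AP-1 motif TGANTCA, searched on both strands. The windows are chr9:119340019-119340268 (minus strand) for Myd88 and chr9:106222348-106222597 (plus strand) for Tlr9.
Myd88: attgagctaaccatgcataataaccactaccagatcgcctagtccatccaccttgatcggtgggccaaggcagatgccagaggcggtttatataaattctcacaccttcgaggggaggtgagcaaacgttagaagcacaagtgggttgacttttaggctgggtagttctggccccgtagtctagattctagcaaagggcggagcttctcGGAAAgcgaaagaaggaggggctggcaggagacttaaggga
Tlr9: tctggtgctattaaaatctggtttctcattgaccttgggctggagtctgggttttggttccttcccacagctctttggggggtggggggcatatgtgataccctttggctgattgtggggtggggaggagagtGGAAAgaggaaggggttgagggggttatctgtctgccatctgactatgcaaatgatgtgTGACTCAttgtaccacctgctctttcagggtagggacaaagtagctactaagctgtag
The core GGAAA occurred 1 time in each, and 55.6% of 32851 promoter windows of this length hold it. Among the windows not shown it occurred 2 times for Irak4 and 0 times for Tlr2 and Tlr6. For Tlr1 it occurred 1 time at 1 entry and 0 times at the other. The AP-1 motif occurred 1 time in the Tlr9 window and 0 times in the Myd88 window, against 6.75% of all windows. The NF-kappaB motif was found in neither, while the Tlr2 window held it at 2 positions, as 7.25% of all windows do at 1 or more. The 2 motifs marked in capitals do not overlap. These are matches of letters and say nothing of binding.

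Other genes of the pathway were taken from 5 lists. Of 74 genes 56 were on the array and 40 were tested with 1 probe set each, the brightest. Over these 40 genes 3 rose, 4 fell and 33 were not called, with a median change of -0.04. Over all 7798 genes tested 12.9% were higher and 11.9% lower, 24.8% together, with a median of 0.03. The 7 calls among 40 genes are thus not above the background share.

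Of 9 tested receptors and accessory proteins 0 were called at the brightest probe set (median -0.27). Hsp90b1, a chaperone of Toll-like receptors, was called lower at the dimmer of its 2 probe sets (log2 change -0.37, limma adjusted p = 0.0479) and not at the brighter (-0.04). The largest change was in Clec7a, the beta-glucan receptor dectin-1, which works beside TLR2: its signals were 825.2 and 518.8 in the wild-type and 468 and 279.1 in the deficient cultures (log2 change -0.82, limma adjusted p = 0.0556). Clec7a was called with median scaling (adjusted p = 0.000506). Its change was -0.49 without wild-type replicate 1 and -0.47 without deficient replicate 2, and -1.14 and -1.17 without wild-type replicate 2 and deficient replicate 1, where it was called (adjusted p = 0.000970 and 0.00979). Cnpy3, a chaperone of Toll-like receptors, had 234 and 155.5 against 283.7 and 291.9 (log2 change 0.54, adjusted p = 0.105); the change was 0.27 without wild-type replicate 2. Cd36, a co-receptor for diacylated lipopeptides, had 101.7 and 115.3 against 66.3 and 76.2 (log2 change -0.48, adjusted p = 0.210).

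Of 2 tested adaptors Pik3ap1, which links Toll-like receptors to phosphoinositide 3-kinase, fell from 449.3 ± 29.1 to 296.2 ± 35.9 (SD, n = 2; log2 change -0.57, limma adjusted p = 0.0325). Without wild-type replicate 1 or deficient replicate 1 the Pik3ap1 call was lost (adjusted p 0.0900 and 0.170). Tirap, which brings MyD88 to TLR2 and TLR4, had 419.9 and 343.2 against 394.9 and 356.1, with overlap (log2 change -0.02).

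Of 13 tested kinases, ubiquitin ligases and their partners 3 fell and 10 were not called (median -0.14). Ikbkg, the regulatory subunit NEMO of the IkappaB kinase, fell from 802.2 ± 28.9 to 409.1 ± 61.4 (SD, n = 2), a log2 change of -0.94 (limma adjusted p = 0.00273). For Ikbkg 3 of 4 probe sets were called. Tank, a scaffold of the kinase TBK1, fell from 2841 ± 335 to 1483 ± 121 (log2 change -0.92, limma adjusted p = 0.00137). Both kept their calls with any 1 array left out. Traf6, the ubiquitin ligase that the MyD88 complex and RANK share, fell from 339 ± 51.3 to 220.1 ± 8.27 (log2 change -0.57, limma adjusted p = 0.0483) and was called at 2 of its 3 probe sets. Leaving out wild-type replicate 1, deficient replicate 1 or deficient replicate 2 ended the call at the brightest Traf6 probe set (adjusted p of 0.198, 0.175 and 0.104). Irak1, the kinase that IRAK4 phosphorylates, was called at 0 of 4 probe sets, which differed in sign: the brightest had -0.63 (limma adjusted p = 0.0523) and another 0.29 (adjusted p = 0.183).

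Of 5 tested negative regulators 1 rose and 4 were not called (median 0.29). Dusp1, a phosphatase of the p38 and JNK kinases, had 311.3 and 262.2 in the wild-type and 681.6 and 563.8 in the deficient cultures. This was the largest change of the 40 genes, with a ratio of 2.17 and a log2 change of 1.06 (SE 0.16, limma adjusted p = 0.00265). Sigirr, an inhibitory receptor of the same family, had 148 and 95.7 against 237.7 and 174.3 (log2 change 0.67, adjusted p = 0.0927). Tollip had -0.33 at the brighter of its 2 probe sets (limma adjusted p = 0.168) and -0.60 at the other (limma adjusted p = 0.0515). Tnip1 had 0.29 (limma adjusted p = 0.0653). With the mean of all probe sets of a gene in place of the brightest, 1 negative regulator was called lower.

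Genes that Toll-like receptors induce were mostly dim or not called. Of 21 on the array 10 failed the filter, among them Il6, Il12b and Nos2, with signals of 1.7 to 46.7. Of the 11 tested 2 rose and 9 were not called at the brightest probe set (median 0.07). Nfkbia, which encodes the NF-kappaB inhibitor IkappaB-alpha, was called lower at 1 of its 4 probe sets (log2 change -0.39, limma adjusted p = 0.0317), and not at the brightest (-0.16). Ier3, a stress-induced survival factor, rose from 131.9 ± 49.4 to 240.7 ± 4.53 (SD, n = 2; log2 change 0.80, limma adjusted p = 0.0464). Cd40, a costimulatory receptor, rose from 77.7 ± 5.09 to 144.8 ± 0.212 (log2 change 0.74, limma adjusted p = 0.0498), but not at its other probe set. Leaving out single arrays ended the call of Cd40 in each of 4 cases and that of Ier3 without wild-type replicate 2 or either deficient array. Tnf had 220.3 and 84.8 against 196.2 and 24.7, with overlap (log2 change -0.66, adjusted p = 0.506), and Lcn2 had 143.6 and 263.1 against 567.1 and 261.4 (log2 change 0.91, adjusted p = 0.0995). The Lcn2 signal was highest on deficient replicate 1, as the granulocyte markers were.

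Calls in these lists depended on the setting, except those of Ikbkg, Tank and Dusp1. Without the filter Pik3ap1 (adjusted p = 0.0651), Traf6 (0.10), Ier3 (0.128) and Cd40 (0.138) were not called. With median scaling Irak1 (0.0103), Sigirr (0.0210), Cnpy3 (0.0464) and Lcn2 (0.000146) were called besides Clec7a, in the directions given above. With single arrays left out the change was -0.97 to -0.29 for Irak1, 0.41 to 0.93 for Sigirr and 0.38 to 1.43 for Lcn2.

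**Figure D4:**
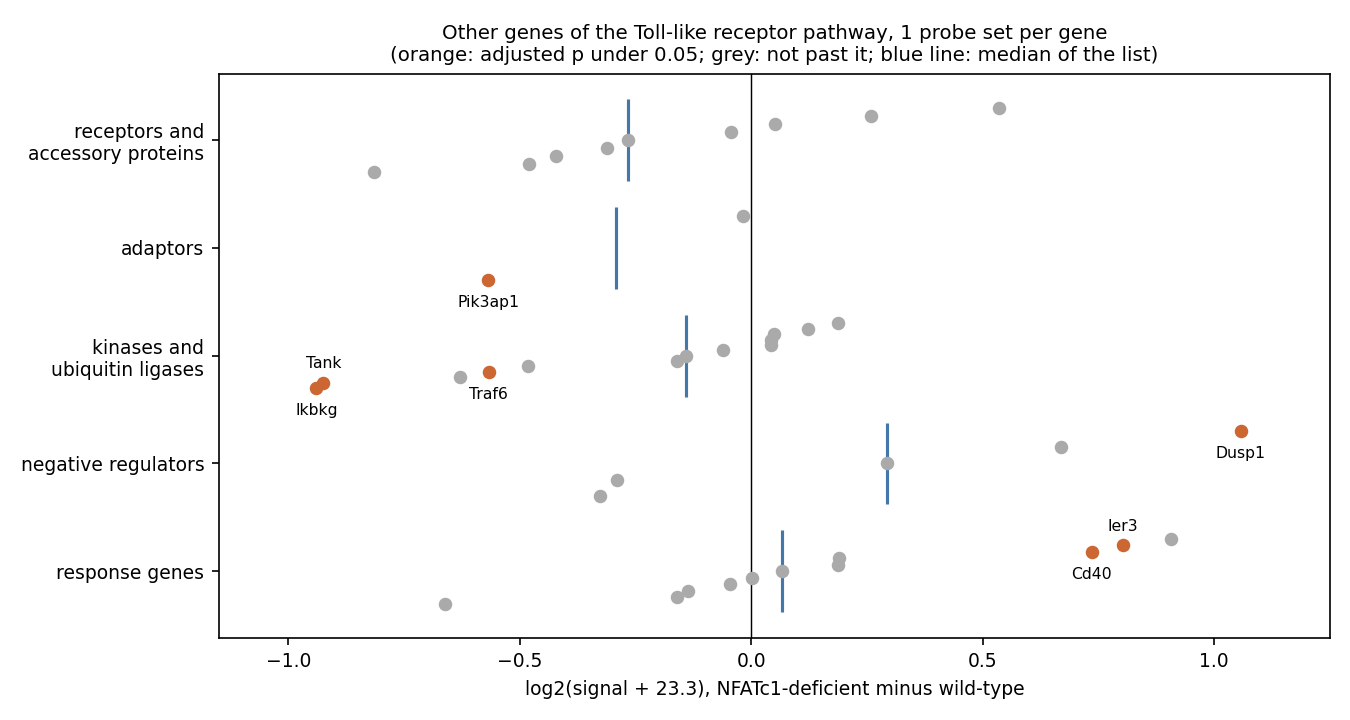
Change of the 40 tested pathway genes by list (horizontal axis, log2(signal + 23.3), NFATc1-deficient minus wild-type; the height of a point within a list only ranks the genes); orange points were called and are named, grey points were not, and blue lines are list medians. The genes called lower are Ikbkg (-0.94), Tank (-0.92), Pik3ap1 and Traf6 (both -0.57), and Dusp1 (1.06) has the largest rise; 33 of the 40 were not called.

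By their pattern over the 4 arrays, measured as the distance between log2 values centred on each probe set's mean, the genes nearest to Cd14 were Rpl14 (distance 0.06) and Riok2 (0.07). Those nearest to Ly96 were Gdap2 (0.01) and Pabpn1 (0.02). With 4 arrays such closeness is common: of 12511 other probe sets compared, 146 lay within 0.2 of Cd14 and 633 within 0.2 of Ly96.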

How the data were processed

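Expression was measured on 4 Affymetrix arrays, 2 per genotype. The deposited intensity values are probe set signals that the authors computed with MAS5 (submitters' processing notes); the sources used here give neither its version nor detection calls. From the values, each array had been scaled to a mean, trimmed by 2% at each end, of 500.186 to 500.211. MAS5 combines the probes of a set into 1 signal, and a single factor per array leaves intensity-dependent differences between arrays in place. Of 22690 probe sets, 20393 had 1 symbol in the platform annotation, 691 several and 1606 none. The number of arrays limits the precision. The labels name pools of mice, so p-values rest on 2 pools per group. Their variance is moderated by limma with that of the other probe sets, so it is not the spread of these pools alone. The 2 pools of a group also differed in sex and in number of mice.

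Signals were analysed as log2(signal + 23.3), the 25th percentile of all values, which understates changes of dim genes. After 64 control probe sets were left out, the 13577 probe sets whose mean exceeded 61.95, the 40th percentile, entered the test, run in limma 3.58.1 under R 4.3.3 (lmFit, eBayes with intensity trend, two-sided, Benjamini-Hochberg at 0.05). Intervals are 95%, unadjusted. Text names all members, and list genes past the threshold or with the largest changes. The members and lists were chosen with earlier results of these data known. The filter's percentile was first taken over the non-control probe sets; taking it over all probe sets, with those equal to it left out, was settled after the members' values had been seen, to match an earlier count for these data, and both other versions were run as alternatives. The scripts were tested on simulated data. Alternatives covered scaling, pseudocount, filter, trend, replicate block and single arrays.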

Additional observations from a re-analysis of the deposited data

Results flagged for a closer look

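Hybridisation controls are transcripts added in fixed amounts and stand outside the comparison of mouse genes. Their signals differed between the genotypes, and also between the 2 replicates of a genotype. A Cre control probe set, for example, had 5485 and 6585 on wild-type replicates 1 and 2, and 6948 and 7291 on the deficient ones. Their median log2 change was 0.25, NFATc1-deficient minus wild-type. On 12 of 18 control probe sets, made for the transcripts bioB, bioC, bioD and cre, both deficient signals exceeded both wild-type signals. For 63.2% of all probe sets tested the signals of the genotypes did not overlap, in either direction. The changes of Myd88 (0.27) and of the brighter Tlr4 probe set (0.26) were of similar size to the median of the controls. The part of the controls in these changes was not tested.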

How the results depend on the processing

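The call of Cd14 held in 10 of 14 other settings and that of Ly96 in 7 of 14, and both kept their direction in all 14. With the filter's percentile taken over the non-control probe sets, as it was first run, 13575 probe sets were tested, Tlr9 was again untested, and Cd14 (adjusted p = 0.0408) and Ly96 (0.0376) kept their calls. The count of members called higher was 0 without the filter and 0 without the intensity trend, and 0 to 1 with single arrays left out. The count called lower was 0 without the filter, 0 without the trend, and 0 to 1 with single arrays left out, where the 1 was Tlr9 in place of Ly96; with median scaling it was also Tlr9. Over all probe sets, 1157 were higher without the filter and 990 without the trend, and with single arrays left out 840 to 1953 were higher and 937 to 1541 lower, the lowest without deficient replicate 1. Among pathway list genes 6 rose with median scaling, 1 without the filter, 1 with the filter at the 60th percentile, and 1 to 4 with single arrays left out; 2 fell without the filter, 2 without the trend and 3 to 6 with single arrays left out. The cause of these shifts was not tested. Signs reversed for genes with no call in the report, in Tlr2 with quantile scaling (-0.023). With single arrays left out, changes of both signs were found for Tlr2 (-0.29 to 0.30), the dimmer Tlr4 probe set (-0.20 to 0.14), Tlr6 (-0.040 to 0.34), Tirap (-0.15 to 0.12) and Tnf (-1.76 to 0.44). With an arm of 1 array, that array is assumed to vary like the other group.

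Replicate number as a block moved the adjusted p of Cd14 to 0.00276 and of Ly96 to 0.0304, and called 2048 probe sets higher and 1799 lower. Under this block Clec7a (0.00113), Irak1 (0.0118), Tnip1 (0.0461) and Lcn2 (0.0461) were called and Cd40 (0.0690) was not; no call of a tested member changed. The deviations of same-numbered arrays correlated at 0.13 across probe sets, and the labels do not state a pairing. Same-numbered pools did match across genotypes in number of mice and, by Xist and Eif2s3y, in sex. The main fit does not model either. Dim signals limit Tlr7 and Tlr9 most.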
